A study of Homo sapiens with 21 samples.

Results

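Metallothioneins and the genes of cellular zinc control were followed in HepG2 cells, an established human hepatoma line, after 6 h of exposure to caffeine, a methylxanthine that blocks adenosine receptors and inhibits phosphodiesterases. The 9 genes were taken by symbol from a list and matched to the rows of a gene count table with 37637 rows. They comprise the metallothioneins MT1E, MT1F, MT1G, MT1M, MT1X and MT2A, the metal-sensing transcription factor MTF1, the zinc exporter SLC30A1 (ZnT1) and the zinc importer SLC39A10 (ZIP10). All 9 had a row, and 8 passed the filter on low counts, the exception being MT1M.

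The 7 groups were caffeine at 0, 0.01, 0.1, 1, 10, 100 and 1000 µM, with 3 libraries each and 21 in all. Every group, the control included, spent the 6 h in DMEM without serum after a wash, and was harvested with trypsin. Caffeine had been dissolved in the medium itself. The sample labels give the control as caffeine at 0 µM, whereas the series text names coumarin for it, and the sample labels were followed. Since 1 tumour line was used, all groups share its genetic background. The labels speak of triplicates and do not describe how they were kept apart. The p-values therefore weigh group differences against the spread between these libraries, which may in part be technical.

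Metallothioneins are small cysteine-rich proteins that hold zinc and copper in the cytoplasm, and the liver is among the tissues richest in them. MTF1 binds free zinc through its zinc fingers and then activates genes that carry metal response elements, the metallothionein genes and SLC30A1 among them. SLC30A1 moves zinc out of the cell across the plasma membrane and SLC39A10 moves it in; SLC39A10 is known to fall when zinc is plentiful.

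The exporter rose at the top dose, and the importer was lowest at the 2 top doses. MTF1 stood higher in every treated library than in any control. So did genes not among the 9, such as SLC39A6, SLC39A9, APOB and CP. How large a share of all genes did so was not counted. None of the 5 metallothioneins tested passed the threshold in the edgeR fit on all 21 libraries, although other fits called some of them in single comparisons. SLC30A1 averaged 66.6 ± 5.87 CPM at 1000 µM against 33.6 ± 2.09 at 0 µM (SD, n = 3 each). SLC39A10 averaged 33.5 ± 6.76 against 46.1 ± 3.02 CPM, and MTF1 19.7 ± 0.997 against 12.9 ± 0.189 CPM. MT2A, the most abundant of the metallothioneins, averaged 207 ± 38.8 against 171 ± 28.4 CPM. The unit, CPM, scales a gene's reads by its library's depth, adjusted with TMM factors that even out differences in composition.

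Libraries held 28043623 to 40827833 counts, with a median of 32497612. Mitochondrially encoded transcripts made up 4.95% to 14.2% of a library. Each of the 10 hepatocyte markers was detected, with a summed level of 27201 to 29660 CPM at 0 µM and 26036 to 27894 CPM at 1000 µM. Single markers moved within that sum. At 1000 µM against 0 µM, 3 of the 10 were called lower and 1 higher by edgeR, where 41.2% of all genes were called. The log2 fold changes were -1.04 for APOA1, -0.69 for AFP, -0.33 for FGB and 0.56 for APOB. Of 6 fibroblast or stellate cell markers, 5 stayed under 1 CPM throughout and COL1A2 had no count in any library. The summed level of those 6 was 4.11 to 4.75 CPM at 0 µM and 8.30 to 8.84 CPM at 1000 µM, nearly all of it from PDGFRB. The 2 endothelial markers with a row (of 4) stayed under 1 CPM, as did 3 of 6 leukocyte markers. The leukocyte sum, carried by LYZ, was 1136 to 1342 CPM at 0 µM and 844 to 1219 CPM at 1000 µM. The part of these differences in the results on the zinc genes was not tested.

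The 6 metallothionein genes lie in a cluster on chromosome 16, from 56608199 to 56684196, a span of 76.0 kb (GRCh38, GENCODE v29). MT2A (56608199 to 56609497), MT1E (56625475 to 56627112), MT1M (56632233 to 56633986), MT1F (56657694 to 56660698) and MT1X (56682424 to 56684196) lie on the plus strand, and MT1G (56666731 to 56668065) on the minus strand. MTF1 is on the minus strand of chromosome 1, from 37809567 to 37859620, and SLC30A1 on the same strand, from 211571568 to 211578742. SLC39A10 is on the plus strand of chromosome 2, from 195575977 to 195737702. An opposite-strand pseudogene, AL929472.4, lies within the MTF1 locus and had 0 to 1 counts in each library. SLC39A10 overlaps AHCYP5 and RNU6-915P on the other strand, and MT1X overlaps AC026461.1 on its own strand; these 3 were not analysed here. Whether counting used strand is not given in the sources used here, so reads of overlapping genes cannot be told apart.

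The metallothioneins are near copies of one another, which bears on every count given for them. The coding sequences of the 4 most abundant are shown from start to stop codon, as annotated in GENCODE v29, because reads from their identical stretches could be assigned to either copy. Each is 186 bases long, and capitals mark the bases that differ from MT2A.
MT2A: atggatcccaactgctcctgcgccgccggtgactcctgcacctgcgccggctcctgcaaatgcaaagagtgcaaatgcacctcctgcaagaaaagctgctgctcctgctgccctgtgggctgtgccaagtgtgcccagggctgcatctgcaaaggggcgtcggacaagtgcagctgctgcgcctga
MT1G: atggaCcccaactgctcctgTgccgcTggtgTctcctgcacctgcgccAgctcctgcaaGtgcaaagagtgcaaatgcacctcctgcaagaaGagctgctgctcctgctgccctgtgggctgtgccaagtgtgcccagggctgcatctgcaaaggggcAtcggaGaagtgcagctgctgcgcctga
MT1E: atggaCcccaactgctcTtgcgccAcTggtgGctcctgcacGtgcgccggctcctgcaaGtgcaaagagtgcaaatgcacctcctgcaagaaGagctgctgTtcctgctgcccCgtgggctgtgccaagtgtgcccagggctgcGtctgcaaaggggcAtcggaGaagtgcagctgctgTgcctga
MT1X: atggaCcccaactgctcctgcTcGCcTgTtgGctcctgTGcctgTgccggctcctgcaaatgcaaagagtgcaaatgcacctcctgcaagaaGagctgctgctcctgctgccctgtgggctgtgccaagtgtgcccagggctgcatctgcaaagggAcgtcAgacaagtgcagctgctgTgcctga
MT1G differs from MT2A at 9 positions (95.2% identity), and MT1E and MT1X at 14 each (92.5%). MT1F (16 differences) and MT1M (19 differences) are 91.4% and 89.8% identical to MT2A. The longest unbroken run that any pair of the 6 coding sequences shares is 96 bases, between MT1G and MT1X.

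Outside the coding sequence the transcripts diverge. Of all windows of 50 bases in the MT2A transcript, 4.88% were found in a transcript of another gene, and the share was 5.34% for MT1E, 3.59% for MT1F and 7.05% for MT1M. It was 20.2% for MT1G and 45.1% for MT1X, where AC026461.1 is among the sources. For SLC30A1 and SLC39A10 no such window was shared, and for MTF1 0.644% were. MT1X and MT1G counts are therefore the least certain of those given here, and how the authors' counting treated reads that match several genes is not given in the sources used here.

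The 250 bases before the RefSeq start site of the most abundant metallothionein, of a second metallothionein and of the zinc exporter are shown because metal response elements lie in such regions. They come from RefSeq (GRCh38.p14) and run 5′ to 3′ along the gene's own strand. Capitals mark the core of the metal response element, searched as TGCACNC or TGCGCNC on both strands, and the 2 motifs do not overlap each other as spelled. The windows are chr16:56608334-56608583 (plus strand) for MT2A, chr16:56682220-56682469 (plus strand) for MT1X and chr1:211579162-211579411 (minus strand) for SLC30A1. The start sites differ between RefSeq and GENCODE v29. By the GENCODE loci given above, the MT2A window lies within the gene, the MT1X window ends within it, and the SLC30A1 window lies outside it.
MT2A: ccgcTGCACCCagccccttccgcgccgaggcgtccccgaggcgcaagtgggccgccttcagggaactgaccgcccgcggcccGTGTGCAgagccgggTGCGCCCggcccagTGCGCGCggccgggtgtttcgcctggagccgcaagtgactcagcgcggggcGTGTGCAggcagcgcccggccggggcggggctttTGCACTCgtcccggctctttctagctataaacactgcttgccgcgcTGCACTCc
MT1X: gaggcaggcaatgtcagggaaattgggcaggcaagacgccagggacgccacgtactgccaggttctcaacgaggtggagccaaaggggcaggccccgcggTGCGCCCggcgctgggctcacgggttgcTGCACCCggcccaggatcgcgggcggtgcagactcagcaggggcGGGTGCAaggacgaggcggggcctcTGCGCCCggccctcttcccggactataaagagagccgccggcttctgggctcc
SLC30A1: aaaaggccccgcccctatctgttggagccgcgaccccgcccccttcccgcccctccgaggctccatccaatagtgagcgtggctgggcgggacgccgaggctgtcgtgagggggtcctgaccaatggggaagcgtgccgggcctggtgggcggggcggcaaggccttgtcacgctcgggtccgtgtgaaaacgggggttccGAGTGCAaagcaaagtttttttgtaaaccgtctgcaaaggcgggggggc
In these windows MT2A held 7 matches, MT1X 4 and SLC30A1 1. With the 50 bases after the start site included, MT2A had 8 matches, the additional one at 30 bases past the start, and SLC30A1 had 2, at -49 and at 24 bases from the start. Of 35116 RefSeq promoter windows of the same 300 bases, 29.6% held at least 1 match. Only 0.0199% held as many as MT2A, 0.601% as many as MT1X and 8.6% as many as SLC30A1. MTF1 had no match. These shares take no account of base composition, whose part was not tested. G and C made up 72.0% of the window of MT2A, 67.0% of MT1X, 68.0% of SLC30A1 and 69.7% of MTF1. Of the 2 start sites listed for SLC39A10, one window had none and the other had 1, at 33 bases past the start. Promoter windows of MT1E, MT1F, MT1G and MT1M were not analysed here. A match is a run of letters and not a bound site.

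The zinc exporter had the largest fold change of the 8 genes at the top dose. SLC30A1 stood at 33.1, 31.8 and 35.9 CPM in the 3 libraries at 0 µM. The 0.01 µM group read 42.6, 28.8 and 34.8 CPM, the 0.1 µM group 34.1, 33.3 and 28.1, the 1 µM group 34.0, 33.8 and 26.3, and the 10 µM group 29.3, 30.6 and 34.5. Up to 10 µM, then, each group overlapped the control. At 100 µM the libraries read 47.3, 40.4 and 42.0 CPM, all above the highest control. At 1000 µM they read 59.8, 70.3 and 69.7 CPM, above every library of every other dose.

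The log2 fold change of SLC30A1 at 1000 µM was 0.99 ± 0.13 (SE), a 1.98-fold rise with a 95% interval of 1.63 to 2.41, and passed the test (edgeR adjusted p 2.39e-05). In bulk RNA, more RNA per cell and a change in which cells were sampled cannot be told apart. At 100 µM the log2 fold change was 0.36 ± 0.13 and missed the threshold (edgeR adjusted p 0.0991), although DESeq2 called it (adjusted p 0.0493), as did a fit on the 6 libraries of those groups alone (edgeR adjusted p 0.0160). Between the 2 top doses SLC30A1 rose further, by 0.62 ± 0.13 on the log2 scale (edgeR adjusted p 0.00409). The exporter was thus higher at 1000 µM than at each of the other doses, with log2 differences of 0.91 to 1.09 against 0.01 to 10 µM and edgeR adjusted p from 1.77e-05 to 1.08e-04, where 18.5%, 24.3%, 22.3% and 18.4% of all genes passed against 0.01, 0.1, 1 and 10 µM. Leaving out any 1 library of the groups compared kept the call at 1000 µM, with log2 fold changes from 0.95 to 1.09.

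**Figure D1:**
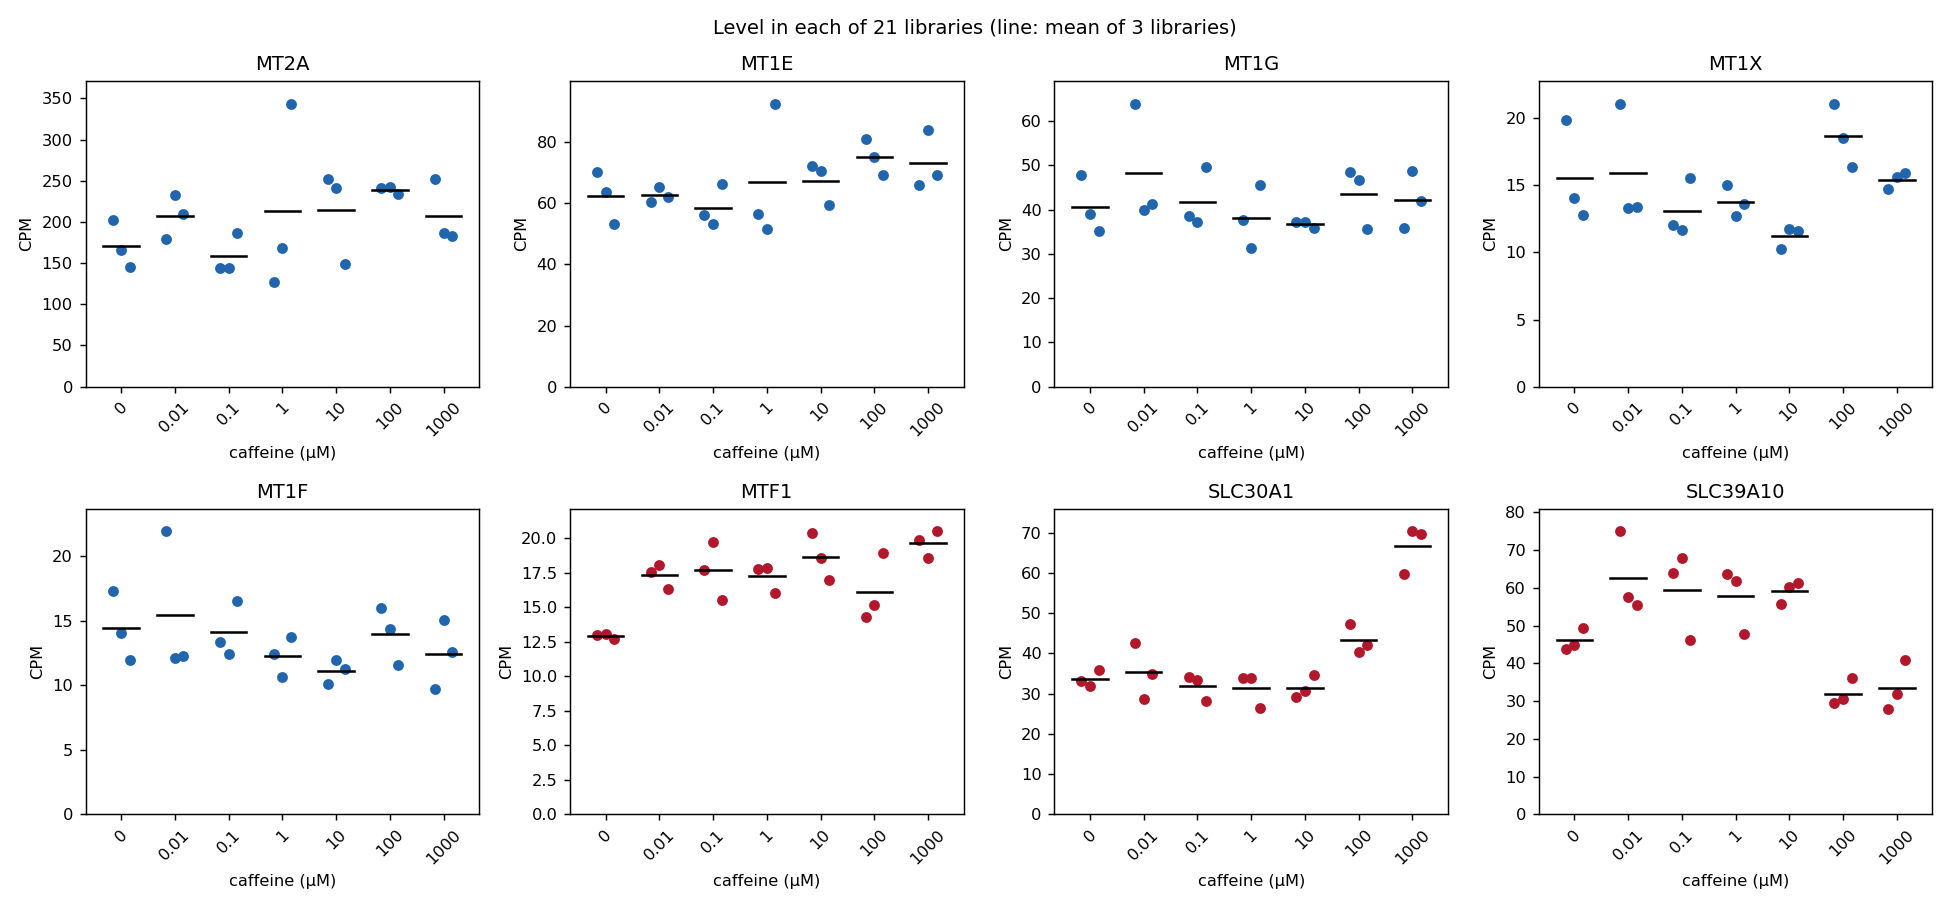
CPM (TMM-scaled) on a linear axis from 0 of 8 genes in each of the 21 libraries, by caffeine dose in µM. Points are single libraries, horizontal lines the means of 3; SLC30A1 at 1000 µM sits at 59.8 to 70.3 CPM, above all other libraries, while no metallothionein passed against 0 µM at any dose in the edgeR fit on all 21 libraries.

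The importer was at its lowest at the 2 top doses. SLC39A10 stood at 43.8, 44.9 and 49.5 CPM at 0 µM. The 0.01 µM group read 75.0, 57.6 and 55.4 CPM, the 0.1 µM group 63.9, 67.9 and 46.2, the 1 µM group 63.7, 61.9 and 47.9, and the 10 µM group 55.6, 60.2 and 61.4. In these 4 groups all but 2 of the libraries lay above the highest control. At 100 µM the libraries read 29.5, 30.5 and 36.0 CPM and at 1000 µM 27.8, 31.8 and 41.0 CPM, all 6 below the lowest control.

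At 1000 µM the log2 fold change of SLC39A10 was -0.46 ± 0.16 (SE), or 1.37-fold lower, and passed the test (edgeR adjusted p 0.0303). That call was lost when any 1 of 5 libraries was left out, namely each of the 3 controls and replicates 1 and 2 at 1000 µM, with edgeR adjusted p of up to 0.167. Without the remaining library, replicate 3 at 1000 µM, the log2 fold change was -0.63 (edgeR adjusted p 0.0107). At 100 µM it was -0.53 ± 0.16 and missed the threshold (edgeR adjusted p 0.0593), while DESeq2 gave an adjusted p of 0.0254. From 100 to 1000 µM the log2 difference was 0.07 ± 0.16 and a 95% interval of -0.27 to 0.41.

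SLC39A10 was also set against the low doses, comparisons added after the data were seen, as were those of SLC30A1 above. At 100 µM the log2 fold change was -0.97 ± 0.16 against 0.01 µM (edgeR adjusted p 0.0182), -0.89 ± 0.16 against 0.1 µM (edgeR adjusted p 0.0231) and -0.85 ± 0.16 against 1 µM (edgeR adjusted p 0.0384). These comparisons called few genes at all, 0.132%, 0.258% and 0.143% of those tested. Against 10 µM it was -0.88 ± 0.16, with an edgeR adjusted p of 0.0618 in a comparison where only 0.0515% of all genes passed. That value fell under the threshold with DESeq2 (adjusted p 2.48e-04), with no filter on low counts (edgeR adjusted p 0.0255) and with a stricter filter (edgeR adjusted p 0.0441). At 1000 µM SLC39A10 was lower than at each of 0.01, 0.1, 1 and 10 µM, by -0.79 to -0.90 on the log2 scale, and all 4 comparisons passed (edgeR adjusted p from 7.52e-04 to 0.00197). Between 0 µM and the low doses no comparison passed: the log2 fold changes were 0.44, 0.37, 0.33 and 0.36 from 0.01 to 10 µM, with edgeR adjusted p from 0.0980 to 0.290. DESeq2 called that at 0.01 µM (adjusted p 0.0430), and the fit on the 6 libraries of 0 and 10 µM alone called that at 10 µM (edgeR adjusted p 0.00791).

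**Figure D2:**
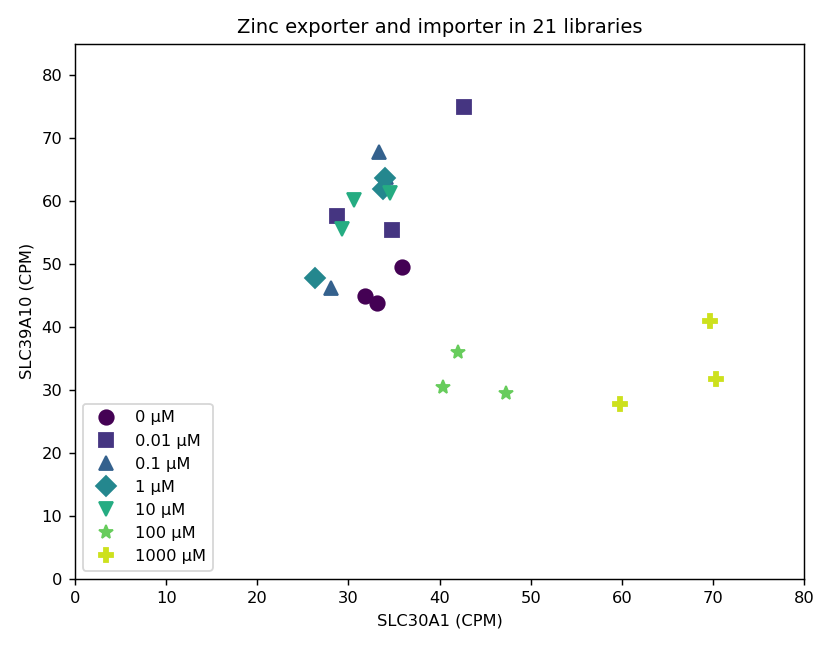
SLC39A10 (vertical axis, CPM) against SLC30A1 (horizontal axis, CPM) in each of the 21 libraries, 1 point per library, symbols and colours by caffeine dose. The 3 libraries at 1000 µM lie at the lower right, with 59.8 to 70.3 CPM of SLC30A1. Those at 100 µM lie to their left, with 40.4 to 47.3 CPM of SLC30A1. With 29.5 to 36.0 CPM of SLC39A10 they fall within the range of the 1000 µM libraries, 27.8 to 41.0 CPM.

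MTF1, the factor through which zinc activates metallothionein genes, was higher in every treated library than in any control. The controls read 13.0, 13.0 and 12.7 CPM. The 0.01 µM group read 17.6, 18.1 and 16.3 CPM, the 0.1 µM group 17.7, 19.7 and 15.5, the 1 µM group 17.8, 17.9 and 16.1, and the 10 µM group 20.4, 18.6 and 17.0. At 100 µM they read 14.3, 15.1 and 18.9 CPM, and at 1000 µM 19.9, 18.6 and 20.5. Every treated library was above the highest control, and the controls were the tightest group, with a coefficient of variation of 1.47% against 5.07% to 15.3% at the other doses. How many of all genes set the controls apart in this way was not counted. SLC39A6 and SLC39A9 did so too, with controls of at most 68.9 and 66.8 CPM and treated libraries of at least 69.1 and 67.7. SLC39A3 was lower in every treated library, at most 51.2 CPM against at least 54.2 in the controls. Genes outside zinc control were set apart in the same way. APOB and CP had controls of at most 5258 and 166 CPM and treated libraries of at least 5718 and 174. AFP and FTL were lower in every treated library, at most 3013 and 6684 CPM against at least 3315 and 7059 in the controls.

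MTF1 was called higher than the control at 0.01 µM (log2 fold change 0.42 ± 0.11, edgeR adjusted p 0.0421), at 10 µM (0.53 ± 0.11, edgeR adjusted p 0.00497) and at 1000 µM (0.61 ± 0.11, edgeR adjusted p 3.56e-04). At 0.1, 1 and 100 µM the log2 fold changes were 0.45, 0.42 and 0.32, each ± 0.11, with edgeR adjusted p of 0.114, 0.0848 and 0.0853, and DESeq2 called all 3. The call at 0.01 µM was lost without any 1 of 5 of the 6 libraries, with edgeR adjusted p of up to 0.173, whereas those at 10 and 1000 µM held in each of these fits. By edgeR none of the comparisons between caffeine doses passed for MTF1, the smallest adjusted p being 0.0885 for 1000 against 100 µM (edgeR), which DESeq2 called (adjusted p 0.0421). All these comparisons with 0 µM use the same 3 control libraries.

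Among the metallothioneins no dose passed against the control in the edgeR fit on all 21 libraries. MT2A stood at 202, 166 and 146 CPM in the controls, and the 0.01 µM group read 179, 233 and 210 and the 0.1 µM group 144, 144 and 187. The 1 µM group read 127, 168 and 344 CPM and the 10 µM group 252, 242 and 149. At 100 µM the libraries read 242, 243 and 234 CPM, and at 1000 µM 252, 187 and 183. The 3 libraries at 100 µM were the closest of any group, with a coefficient of variation of 2.07%, and all lay above the controls; at the other doses the ranges overlapped that of the control.

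The log2 fold change of MT2A was 0.48 ± 0.27 at 100 µM (edgeR adjusted p 0.272) and 0.28 ± 0.27 at 1000 µM (edgeR adjusted p 0.432). Its 95% interval at 1000 µM ran from -0.29 to 0.84, so neither a fall of 0.29 nor a rise of 0.84 on the log2 scale lay outside the range that these libraries allow. In the fit on the 6 libraries of 0 and 100 µM alone MT2A was called higher at 100 µM (edgeR adjusted p 0.0157). The coefficient of variation of MT2A was 16.6% at 0 µM, 2.07% at 100 µM and 53.9% at 1 µM. Only the fit on all 21 libraries takes in the 1 µM group. Why the fits differed was not tested.

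MT1E gave no call against the control either. It stood at 70.2, 63.6 and 53.2 CPM in the controls, and the 1 µM group read 56.6, 51.5 and 92.6, the 100 µM group 80.9, 75.0 and 69.3, and the 1000 µM group 65.9, 84.0 and 69.3. The 9 libraries of 0.01, 0.1 and 10 µM lay between 53.2 and 72.1 CPM, so that every dose overlapped the control. Its log2 fold change was 0.27 ± 0.17 at 100 µM (edgeR adjusted p 0.337) and 0.23 ± 0.17 at 1000 µM (edgeR adjusted p 0.296; 95% interval -0.13 to 0.59).

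MT1X had its lowest mean at 10 µM and its highest at 100 µM. The controls read 19.9, 14.1 and 12.8 CPM, the 0.01 µM group 21.1, 13.3 and 13.4, the 0.1 µM group 12.0, 11.7 and 15.5, and the 1 µM group 15.1, 12.7 and 13.6. At 10 µM it read 10.2, 11.7 and 11.6 CPM, at 100 µM 21.1, 18.6 and 16.4, and at 1000 µM 14.7, 15.6 and 15.9. The groups at 10 and 100 µM did not overlap, and all 3 libraries at 10 µM were below the controls. Between them the log2 difference was 0.74 ± 0.18, with an unadjusted p of 6.62e-04 and an adjusted p of 0.275 (edgeR), and DESeq2 called it. Against 0 µM the log2 fold change was -0.48 ± 0.18 at 10 µM (edgeR adjusted p 0.0657; it passed without replicate 3 of the control) and -0.02 ± 0.18 at 1000 µM.

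MT1G and MT1F were not called at any dose in the same fit. MT1G ran from 31.3 to 63.9 CPM over the 21 libraries and MT1F from 9.74 to 21.9 CPM, and for both the highest library was replicate 1 at 0.01 µM. At 0 µM MT1G ran from 35.2 to 47.9 CPM and at 1000 µM from 35.7 to 48.7 CPM, nearly the same range. MT1F ran from 12.0 to 17.4 CPM at 0 µM and from 9.74 to 15.1 CPM at 1000 µM. Their log2 fold changes at 1000 µM were 0.05 ± 0.19 (95% interval -0.34 to 0.44) and -0.21 ± 0.22 (-0.67 to 0.24), with edgeR adjusted p of 0.849 and 0.449. A missed threshold does not show that these genes kept their level, and the intervals give the changes that remain possible.

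MT1M was close to silent in these cells. It had 0 to 2 counts in each library, at or under the 3 counts that a library with no count of a gene still allows, a floor of 0.0735 to 0.107 CPM across libraries. At 1 and 10 µM it had no count in any of the libraries. Of 14 other metallothionein genes and pseudogenes on the list, 6 had a row and none passed the filter, so the 6 members held at least 99.9% of the family's counts in every library.

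**Figure D3:**
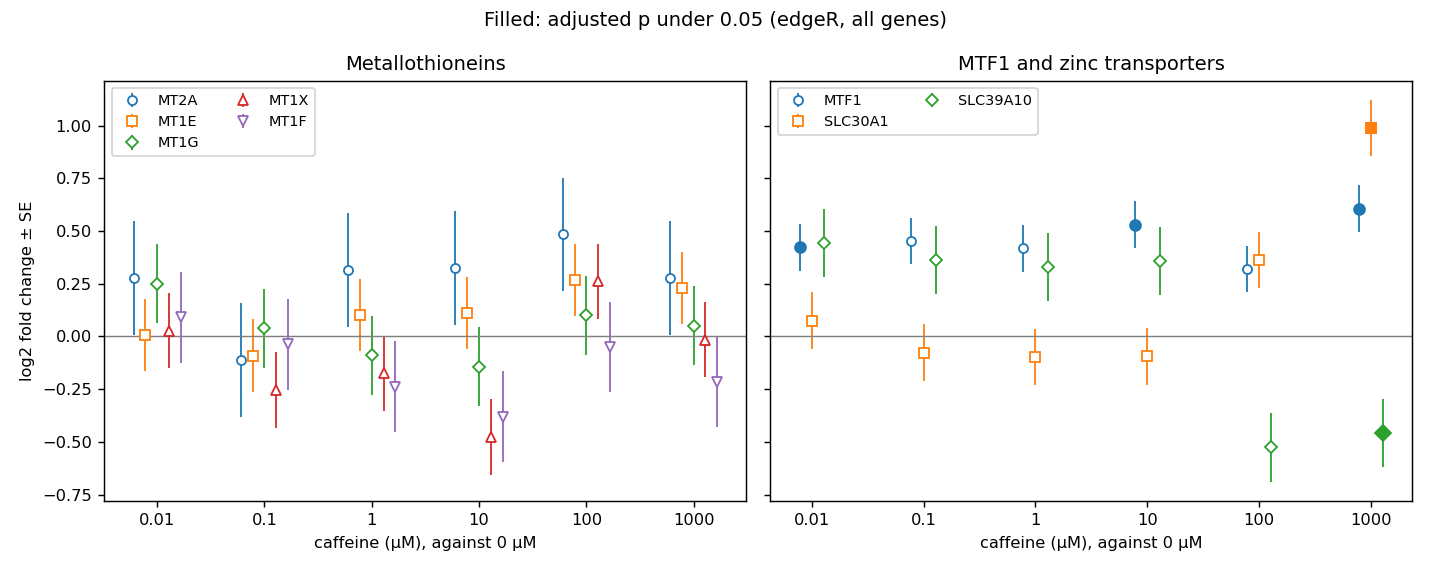
Log2 fold change ± SE against 0 µM (vertical axis) at each caffeine dose (horizontal axis, µM) for the 5 metallothioneins tested (left) and for MTF1, SLC30A1 and SLC39A10 (right). Filled symbols passed an edgeR adjusted p of 0.05; SLC30A1 reaches 0.99 and SLC39A10 -0.46 at 1000 µM, and no metallothionein symbol is filled.

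The summed level of the 6 metallothioneins is not altered by how reads were divided among them. Reads left out in counting or given to genes outside the 6 could still alter the sum. The controls summed to 304 ± 49.6 CPM, the 0.01 µM group to 350 ± 12.8, the 0.1 µM group to 286 ± 42.5 and the 1 µM group to 344 ± 143 (SD, n = 3 each). The sum was 341 ± 63.6 CPM at 10 µM, 391 ± 21.5 at 100 µM and 350 ± 27.6 at 1000 µM. At 100 µM the lowest library, at 367 CPM, was above the highest control, at 357 CPM, while at 1000 µM the range of 323 to 378 CPM overlapped the control range of 259 to 357 CPM. MT2A supplied 51.1% to 67.5% of the sum.

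Of the 21 libraries, the one with the largest metallothionein sum was replicate 3 at 1 µM. It had 509 CPM, where the other 2 libraries of that dose had 249 and 274. MT2A at 344 CPM and MT1E at 92.6 CPM were there at their highest of all 21 libraries, while MT1G (45.6 CPM), MT1X (13.6 CPM) and MT1F (13.8 CPM) were within the range of the controls. The same library had the highest share of mitochondrial counts, 14.2%, against 4.95% and 7.80% in the other 2. Replicates 1 and 2 at 10 µM, with 11.3% and 9.96% mitochondrial counts, had MT2A at 252 and 242 CPM and sums of 382 and 373 CPM, and replicate 3, with 6.48%, had 149 CPM of MT2A and a sum of 268 CPM. Distance over all genes was taken as the mean chi-square per gene between 2 libraries of a dose. It was largest between replicates 1 and 3 at 1 µM, at 207. Replicate 1 at 0.01 µM gave 89.8 and 95.1 with the other 2, which gave 5.45 between them. Replicate 3 at 10 µM gave 65.3 and 41.6, against 7.14 between the other 2. Some library of every dose must lie outside the closest pair, so that order alone carries no weight. The highest MT1G and MT1F were in replicate 1 at 0.01 µM, with 11.7% mitochondrial counts and MT2A at 179 CPM. At 1000 µM the order was the other way. Replicate 3, with 10.3% mitochondrial counts, had MT2A at 183 CPM, and replicate 1, with 8.73%, had 252 CPM. In the controls, too, replicate 2, with 7.86%, had MT2A at 166 CPM, and replicate 1, with 6.94%, had 202 CPM. The part of the mitochondrial share in these values was not tested; with it as a covariate, a setting added after the data were seen, SLC30A1 at 1000 µM had a log2 fold change of 1.02 and SLC39A10 -0.45, and both still passed.

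**Figure D4:**
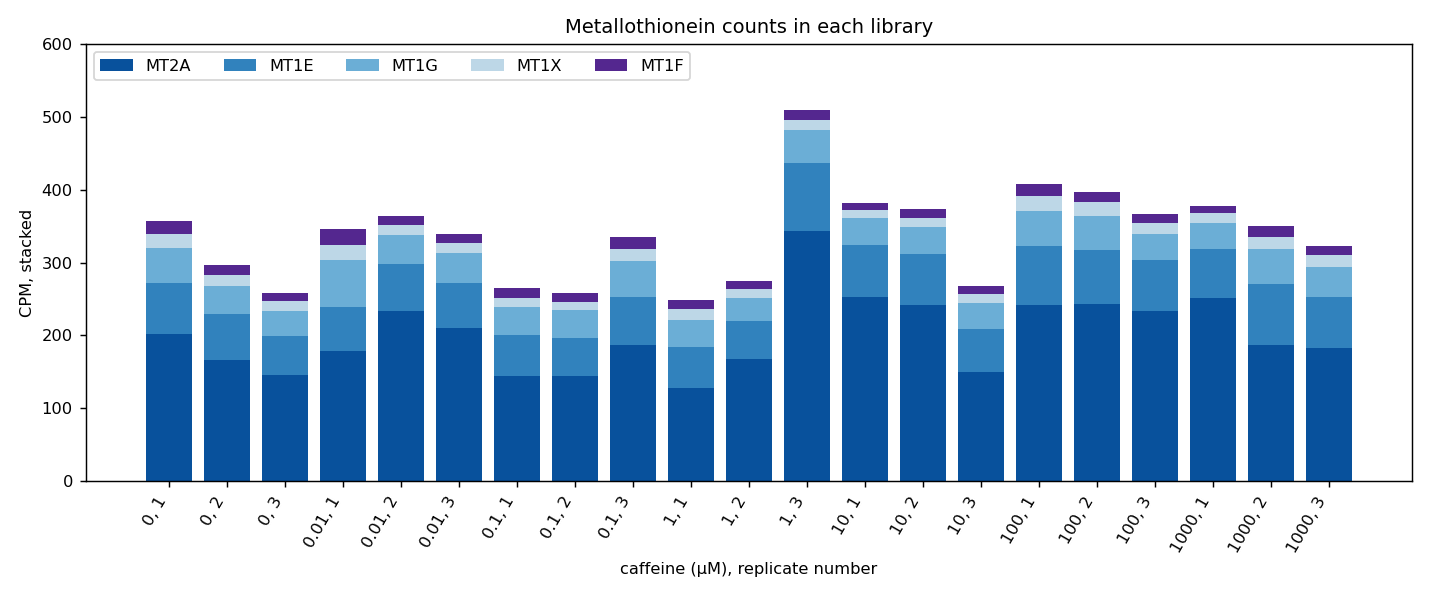
Stacked CPM (vertical axis, linear from 0) of 5 metallothioneins in each of the 21 libraries, labelled by caffeine dose in µM and replicate number. Replicate 3 at 1 µM is the tallest at 509 CPM, and MT2A makes up 51.1% to 67.5% of every bar.

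How many of the 8 genes passed can be read against the share of all 17468 genes tested that did. At 0.01 µM 1 of the 8 passed, MTF1, where 4.95% of all genes did. At 0.1 µM and at 1 µM no member passed, and neither did any other gene (0% called in both by edgeR); 2 and 1 of the 8 had an unadjusted p under 0.05 there, against 15.2% and 22.8% of all genes, and DESeq2 called MTF1 at each. At 10 µM MTF1 alone passed (22% of all genes), and at 100 µM no member did (6.02% of all genes), with 3 of 8 at an unadjusted p under 0.05 by edgeR (25.6% of all genes) and 3 called by DESeq2. At 1000 µM 3 of 8 passed, SLC30A1 and MTF1 higher and SLC39A10 lower, where 41.2% of all genes passed, 20.6% in each direction, so that share is near the background. Between 100 and 1000 µM 1 of 8 passed, SLC30A1, where 14.7% of all genes did. Between 10 and 1000 µM, a comparison added after the data were seen, 2 of 8 passed, SLC30A1 and SLC39A10 (18.4% of all genes).

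The ranges of the 3 treated and 3 control libraries failed to overlap for 2 of the 8 genes with 0.01 µM (32% of all genes tested), for 1 with 0.1 µM (22.5%) and for 1 with 1 µM (23.6%). With 10 µM the count was 4 (45.8%), with 100 µM also 4 (43%), and with 1000 µM 3 (53.2%). MTF1 was among them at every dose, in each case higher. SLC39A10 was above the controls at 0.01 and 10 µM and below them at 100 and 1000 µM. SLC30A1 was above them at 100 and 1000 µM, MT2A at 100 µM, and MT1X and MT1F below them at 10 µM.

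In the test among all 7 groups, 3 of the 8 genes passed, SLC30A1 (edgeR adjusted p 3.20e-05), SLC39A10 (edgeR adjusted p 4.59e-04) and MTF1 (edgeR adjusted p 0.0102), where 28.1% of all genes did. MT1X was next (edgeR adjusted p 0.0622), and it passed with DESeq2. On a slope along the dose step, the rank of the dose from 0 to 6, the same 3 genes passed, where 29% of all genes did. SLC30A1 gained 0.13 ± 0.03 log2 units per step (edgeR adjusted p 0.00272), MTF1 gained 0.06 ± 0.02 (edgeR adjusted p 0.0295) and SLC39A10 changed by -0.12 ± 0.04 (edgeR adjusted p 0.0247). Without the controls the slope of MTF1 was 0.02 (edgeR adjusted p 0.604), while that of SLC30A1 was 0.17 and that of SLC39A10 -0.20, both still past the threshold. Without the 1000 µM group none of the 3 slopes passed. The slope of MT1E was 0.05 ± 0.02 (edgeR adjusted p 0.0788) and passed when replicate 3 at 1 µM was left out.

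Levels of different genes were compared per kilobase of the principal annotated transcript. MT2A was highest, with a median of 238 CPM per kb over the 21 libraries and a range of 162 to 437. MT1G (median 95.8, range 77 to 157) and MT1E (median 93.6, range 73.1 to 132) overlapped widely and were below every MT2A value. MT1X (31.3) and MT1F (18) followed, with ranges of 22.7 to 46.9 and 14.1 to 31.8 CPM per kb that also overlapped. SLC39A10 had a median of 9.3 CPM per kb and SLC30A1 of 6.23, with ranges of 5.23 to 14.1 and 4.81 to 12.8, and MTF1 was the lowest of the 8 at 2.23. Over all libraries the ranges of importer and exporter overlapped, but per kilobase the exporter was the higher of the pair in all 6 libraries of 100 and 1000 µM and the importer in every library of the other doses.

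Replicate spread differed between the genes as well. The median coefficient of variation within a dose was 5.91% for MTF1, 8.82% for SLC30A1 and 15.0% for SLC39A10. It was 11.7% for MT1E, 12.6% for MT1X, 15.7% for MT1F, 16.1% for MT1G and 16.6% for MT2A. Every metallothionein tested had at least 331 counts in each library.

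By a fixed rule, the genes whose 7 group means in log2 CPM correlated most with those of SLC30A1, among 10585 genes with a mean of at least 5 CPM, were FNTA (r = 0.995), SNX25 (0.994), TBRG1 (0.993), ETS2 (0.992) and PHF10 (0.991). Those most like MT2A were POLR2K (r = 0.998), TERF1 (0.992), TNFAIP8 (0.986), OLA1 (0.975) and ECD (0.972). For SLC39A10, added after the data were seen, they were EIF2AK4 (r = 0.975), ANKRD1 (0.974), SYTL2 (0.970), ZNF561 (0.968) and SNX29 (0.963). These are descriptions over 7 points that share libraries and were picked as the highest of many.

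The other zinc transporters were counted at 1000 µM, where 41.2% of all genes were called, 20.6% in each direction. Of 6 other exporters of the ZnT family tested, 1 was called higher at 1000 µM and none lower, with a median log2 fold change of 0.15, where the median over all genes was -0.03. It was SLC30A6, which feeds zinc into the secretory pathway as part of a complex with SLC30A5, at 0.33 ± 0.13 (edgeR adjusted p 0.0499). SLC30A1 thus had the largest log2 fold change of the 7 ZnT genes tested at that dose. Of 11 other ZIP importers tested, 4 were lower and 2 higher at 1000 µM, with a median of -0.28. SLC39A4, the importer of dietary zinc in the gut, had a log2 fold change of -0.90 ± 0.18, SLC39A3 of -0.81 ± 0.13 and SLC39A5 of -0.64 ± 0.18 (edgeR adjusted p 6.71e-04, 9.04e-05 and 0.00789). The fourth was SLC39A1, at -0.28 ± 0.11. SLC39A6, the close relative of SLC39A10 with which it forms heteromers, went the other way, at 0.60 ± 0.10 (edgeR adjusted p 1.16e-04), as did SLC39A9, at 0.39 ± 0.08. SLC39A1 and SLC39A9 are named because they complete the count, after their values were seen.

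The means of SLC39A6 can be set beside those of SLC39A10. SLC39A6 averaged 62.9 ± 6.26 CPM in the controls, and 81.9 ± 6.60, 73.6 ± 3.92 and 82.7 ± 8.54 at 0.01, 0.1 and 1 µM. It averaged 84.1 ± 5.77 in the 10 µM group, 88.8 ± 3.41 in the 100 µM group and 95.3 ± 6.97 in the 1000 µM group. SLC39A10 averaged 46.1 ± 3.02 CPM in the controls and 62.7 ± 10.7, 59.3 ± 11.5 and 57.8 ± 8.68 at 0.01, 0.1 and 1 µM. Its mean was 59.1 ± 3.02 at 10 µM and 32.0 ± 3.53 at 100 µM. Up to 10 µM, then, both means stood above their controls. The difference between these responses was not tested.

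**Figure D5:**
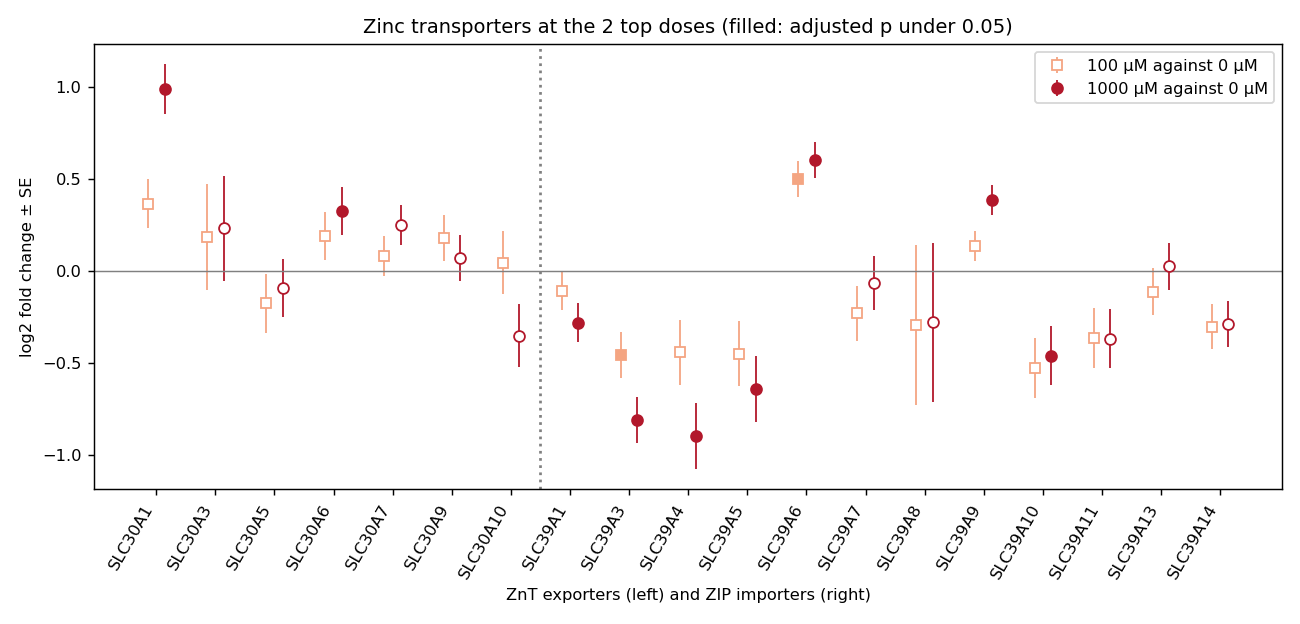
Log2 fold change ± SE (vertical axis) at 100 µM (squares) and 1000 µM (circles) against 0 µM for 7 ZnT exporters (left of the dotted line) and 12 ZIP importers (right). Filled symbols passed an edgeR adjusted p of 0.05; SLC30A1 at 0.99 is the highest and SLC39A4 at -0.90 the lowest at 1000 µM.

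Metallothioneins also bind copper and answer to glucocorticoids, so genes of these systems were set beside them. Of 10 copper-handling genes tested, 4 were lower and 2 higher at 1000 µM, with a median log2 fold change of -0.17. COMMD1, ATOX1, COX17 and CCS, all of which help to deliver or regulate copper inside the cell, had log2 fold changes of -0.95, -0.90, -0.90 and -0.58. CP went the other way, from a mean of 154 ± 13.8 CPM at 0 µM to 229 ± 24.7 at 1000 µM. None of the 10 copper genes passed for 1000 against 100 µM or against 10 µM, where 14.7% and 18.4% of all genes did. COX17 averaged 22.8 ± 5.86 CPM at 0 µM, 10.8 ± 0.832 at 10 µM and 12.2 ± 3.49 at 1000 µM. Of 10 listed genes of the glucocorticoid response, 6 were tested. TSC22D3, KLF9, ZBTB16 and CRISPLD2 missed the filter on low counts, at 0.47 CPM or less in every library. All 6 tested were higher at 1000 µM, with a median of 0.65. They included ERRFI1 (1.95 ± 0.09), NR3C1, which encodes the glucocorticoid receptor itself (1.27 ± 0.15), TAT (0.72 ± 0.13) and SGK1 (0.58 ± 0.10). MT2A, a textbook glucocorticoid target, had 0.28 ± 0.27 in the same comparison and did not pass. For 1000 against 10 µM, 5 of the 6 glucocorticoid genes were called higher. FKBP5 was not among those called. Its mean was 90.0 ± 5.33 CPM in the 1000 µM group, 94.8 ± 4.69 in the 10 µM group and 69.1 ± 2.56 in the controls. Of 11 genes of iron handling tested, 6 were higher and 2 lower at 1000 µM against 0 µM, with a median of 0.48. HAMP, the hormone that limits iron release, had a log2 fold change of 2.57 ± 0.24 from a mean of 0.757 CPM at 0 µM, and FTL, the ferritin light chain, of -0.75 ± 0.11. Calls among these genes were frequent at 1000 µM, where 41.2% of all genes passed.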

How the data were processed

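RNA was purified with Trizol and selected on poly(dT) beads, per the labels' protocols. The authors deposited whole-number read counts per gene without normalization. HISAT2, DESeq2 and the build GRCh38 appear in the submitters' processing notes, with no role stated. The counter, annotation and strand setting are not given in the sources used here. Of the columns of per-sample values, 21 matched no sample label and were not used.

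The quasi-likelihood test of edgeR 4.0.16 (R 4.3.3) was run on these counts after filterByExpr (min.count 10) and TMM, as a single model of 21 libraries in 7 groups (17468 genes, 14 residual degrees of freedom). P-values were adjusted over all genes tested by the Benjamini-Hochberg method, threshold 0.05. DESeq2 1.42.0, other scalings, filters, a block on replicate number and fits without single libraries were alternatives. The edgeR script was tested on simulated data. Floors cover counting error only.

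The 9 genes and all lists were chosen with earlier results of these data known. Named from each list were up to 4 genes past the threshold at 1000 µM or on the slope, with a mean of at least 1 CPM and the largest log2 fold change. Genes were placed on GENCODE v29, and coding sequences were aligned with Biopython 1.88. Promoter windows, for 5 of the 9 genes, came from RefSeq.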

Additional observations from a re-analysis of the deposited data

How the results depend on the processing

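The rise of SLC30A1 at 1000 µM and of MTF1 at 10 and 1000 µM kept direction and call in every alternative run. The count of members called moved as follows. At 0.01 µM it was 1, and 0 at an adjusted p of 0.01, with library totals alone, with no filter, with the replicate block, with the mitochondrial covariate and with the 6 samples alone, 2 with DESeq2, and 0 to 1 without single libraries. At 0.1 µM it was 0, 1 with DESeq2, and 0 to 1 without single libraries (1 without 0.1 µM replicate 3). At 1 µM it was 0, and 1 with DESeq2. At 10 µM it was 1, 2 with the 6 samples alone (adding SLC39A10), and 1 to 2 without single libraries (2 without 0 µM replicate 3, which added MT1X). At 100 µM it was 0, and 3 with DESeq2 and with the 6 samples alone. For 1000 against 100 µM it was 1, 2 with DESeq2, and 1 to 2 without single libraries (2 without 100 µM replicate 3, which added MTF1). For 100 against 10 µM it was 0, 2 with DESeq2, and 1 with no filter, with at least 10 counts in every sample and with the 6 samples alone. At 1000 µM it was 3, 2 at an adjusted p of 0.01, and 2 to 3 without single libraries. Over the 7 groups it was 3, 2 at an adjusted p of 0.01 and with the treated libraries only, 4 with DESeq2 and with no filter, 1 without the 1000 µM group, and 3 to 4 without single libraries. For 1000 against 10 µM it was 2, and 3 with the 6 samples alone. On the slope it was 3, 2 with library totals alone, on linear dose and with the treated libraries only, 1 at an adjusted p of 0.01, 0 without the 1000 µM group, and 1 to 4 without single libraries; only SLC30A1 passed without 1000 µM replicate 1.

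Signs turned for values near 0, none past the threshold. MT1X at 1000 µM against 0 µM was 0.0132 with DESeq2, 0.00814 with DESeq2's size factors, 0.00659 without mitochondrial rows, 0.0198 with no filter, 0.00245 with the replicate block and 0.00231 with the 6 samples alone, and -0.12 to 0.20 without single libraries. MT1F at 100 µM was 0.00105 with no filter and -0.16 to 0.10 without single libraries. Without single libraries, MT1G at 1000 µM lay between -0.0449 and 0.187. SLC30A1 lay between -0.0781 and 0.204 at 0.01 µM, -0.123 and 0.00667 at 0.1 µM, and -0.149 and 0.0240 at 1 µM. SLC39A10 for 1000 against 100 µM lay between -0.10 and 0.21, and MT2A for 100 against 10 µM between -0.0409 and 0.292. The cause was not tested.

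No pairing by replicate number was detected over all genes. Deviations of same-numbered libraries correlated with a median r of 0.0199 over 63 pairs, from -0.44 to 0.25. Of 21 libraries, 5 correlated best with their own number. A weak shared effect could be missed this way. With the replicate block, SLC39A10 at 1000 µM had an adjusted p of 0.0450 (edgeR), and 1 member call, MTF1 at 0.01 µM, was lost. The lowest count of a tested metallothionein was 331, and 3 libraries per dose limit all comparisons.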
